A study of Mus musculus with 6 samples.

Results

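Wild-type thymic natural killer (NK) cells were described from 4 of the 6 RNA-seq libraries of the series, chosen by their genotype label alone, and no contrast with the remaining 2 libraries, of Tcf7 knock-out cells, was made. Each of the 4 libraries, here named WT 1 to WT 4, came from a single wild-type mouse of the C57BL/6 strain. WT 1 and WT 3 were labelled male, WT 2 and WT 4 were labelled female, and neither a treatment nor an age is given in the labels. The cells had been pressed out of the thymus and sorted as negative for TCRbeta, CD3, CD8 and binding of the CD1d tetramer, and as positive for NK1.1 and NKp46. Total RNA was amplified with the SMART-Seq v4 kit, which copies whole transcripts from very small amounts of RNA. Total counts were 25325821, 31155303, 16666151 and 25438859 in WT 1 to WT 4.

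NK cells belong to the innate lymphocytes: they destroy infected or transformed cells with granules of perforin and granzymes, and they secrete interferon gamma and chemokines. They have no rearranged antigen receptor: the balance between activating receptors and inhibitory receptors for class I molecules decides whether a target is killed. Thymic NK cells are a small population known for surface IL-7 receptor and for their need of the transcription factor Gata3, and Tcf7 encodes TCF-1, a factor shared by T cells and innate lymphocytes. Levels below are in TPM, the usual length-scaled unit: the count of a gene divided by the gene length in the deposited table, then scaled to the same sum in every library. A gene was taken as on at 1 TPM or more in each of the 4 libraries, as off below 0.1 TPM in each, and as low otherwise. Strings of 4 values follow the order WT 1, WT 2, WT 3, WT 4. Where 2 genes are ordered, the test was whether their ranges over the 4 libraries overlapped, because 4 libraries of a single group allow no permutation test that could pass 0.05.

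The 6 genes that mark thymic NK cells were on in every library. Ncr1 encodes the activating receptor NKp46 (gene at chr7:4337715-4345184 in GRCm38.p6) and was counted at 1589.8, 1610, 1555 and 1208 TPM. Klrb1c encodes NK1.1 (chr6:128778485-128788641) and was counted at 1460.2, 1472, 1377 and 1323 TPM. Both proteins were used in the sort, so these levels check the labels and are no finding. Tcf7 (chr11:52246527-52283383) was at 958, 962, 845 and 847 TPM. Eomes, the T-box factor of mature NK cells (chr9:118478186-118486132), was at 569, 568, 573 and 464 TPM. Il7r, the alpha chain of the IL-7 receptor (chr15:9506159-9529941), had the widest spread of the 6, with 269.9, 355, 232 and 164 TPM. Gata3 (chr2:9857078-9887953) had the narrowest, with 84.0, 84.2, 81.0 and 82.7 TPM. Ncr1 and Klrb1c overlapped in range, both lay above Tcf7, Tcf7 above Eomes, Eomes above Il7r and Il7r above Gata3, with no overlap in these last 4 steps. Ranked by mean TPM among all 26332 genes of the table, they stood at 64 (Ncr1), 73 (Klrb1c), 122 (Tcf7), 244 (Eomes), 623 (Il7r) and 2419 (Gata3).

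Some libraries stood apart or went against their labels. The library labelled female WT 2 contained transcripts of the Y chromosome: Eif2s3y, a translation factor gene on Y, was at 91.1, 74.0, 108 and 0 TPM, so that WT 2 lay near the libraries labelled male and WT 4 had no count. Xist, the RNA that silences the inactive X chromosome, was at 0.0514, 8.22, 0 and 50.9 TPM. In WT 2 it was lower than in WT 4 but higher than in WT 1 and WT 3. WT 2 thus held both Y chromosome transcripts and Xist, and the cause was not tested. WT 4 held more transcripts of myeloid markers and of some thymocyte and B cell genes, but its summed gamma-delta T cell markers were not raised. The summed alpha-beta T cell markers were at 1241, 1480, 1230 and 1498 TPM. Those of gamma-delta T cells were at 947, 1270, 884 and 858 TPM, and those of B cells at 622, 665, 637 and 661 TPM. Ighm alone held 564, 596, 562 and 587 TPM of the B cell sums. Highest in WT 4 were 10 of 16 alpha-beta T cell markers, 7 of 12 B cell markers and 2 of 10 gamma-delta T cell markers. The summed level of the 16 myeloid and dendritic cell markers was 69.4, 101, 154 and 434 TPM, and 12 of them were highest in WT 4. A part of that sum came from S100a9 (77.5 TPM in WT 4 and at most 0.189 TPM in the others), S100a8 (58.3 TPM against at most 1.07 TPM) and Siglech (21.7 TPM against at most 2.45 TPM). Of these 16 markers 3 were on, 10 low and 3 off, and the neutrophil and mast cell genes Elane and Fcer1a had 0 counts in all 4 libraries. Elane does not stand for all neutrophil genes. In an edgeR fit without WT 2, Ngp, Ltf and Camp, neutrophil genes outside the list, were higher in WT 4 than in WT 1 and WT 3. The differences were 10.6, 10.4 and 9.34 on the log2 scale. Cd8b1 and Cd4, coreceptors of thymocytes, were at 1.62, 2.49, 2.76 and 26.5 TPM and 0.119, 2.18, 0.542 and 10.9 TPM. Rag1, part of the recombinase that rearranges antigen receptor genes, was at 1.45, 3.82, 3.65 and 20.1 TPM. In bulk RNA, fewer cells of a type and less RNA per cell cannot be told apart, and the part of other cells in the levels of WT 4 was not tested. WT 3 and WT 4 also held more transcripts of early response and stress genes, described with the spread below.

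Transcripts were spread over many genes. Of 26332 genes, 11160 (42.4%) were on, 4737 low and 10435 off, and 9466 of the latter had no count in any library. The genes that were on were mostly of moderate level: 6667 had a mean of 10 to 100 TPM, 2498 were below and 1887 between 100 and 1000 TPM. The 108 genes at 1000 TPM or more held 27.9% of all TPM. The 10 most abundant genes held 8.51 ± 0.507% (SD, n = 4) and the 100 most abundant 27.2 ± 0.982% (SD, n = 4). In CPM, counts scaled by library total without the correction for length, the top 100 held 17.9%.

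**Figure D1:**
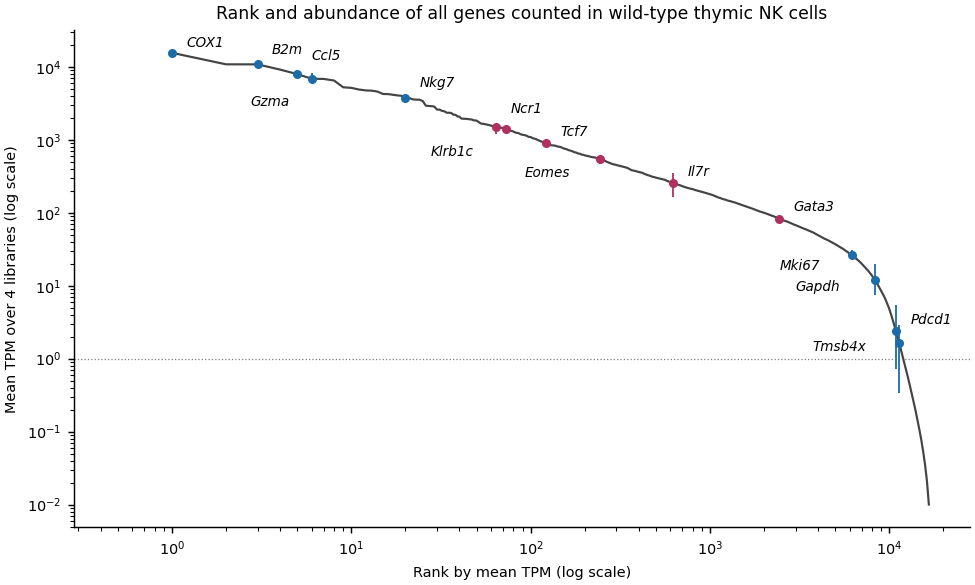
Mean TPM of each gene (y axis, log scale) against its rank by mean TPM (x axis, log scale) over the 4 wild-type libraries; points mark named genes, vertical lines their lowest to highest library and the dotted line 1 TPM, and genes at or near 0 are not drawn. The markers of thymic NK cells, in red, run from rank 64 (Ncr1) to rank 2419 (Gata3).

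Effector and class I genes stood among the housekeeping transcripts at the top. COX1, a mitochondrial subunit of cytochrome oxidase, led with 15581 ± 1691 TPM (SD, n = 4). It was followed among protein-coding genes by B2m, the light chain of class I molecules (10829 ± 471 TPM (SD, n = 4)), and Eef1a1, a translation elongation factor (9179 ± 384 TPM (SD, n = 4)). The chemokine Ccl5 ranked 5 and the granule protease Gzma ranked 6. Ccl5 was at 7453, 7340.3, 7795 and 9206 TPM and Gzma at 6422, 6062, 6654 and 8373 TPM, both highest in WT 4, and their ranges overlapped each other and that of Actb, cytoskeletal actin, at 7268, 8152, 6445 and 5486 TPM. The class I heavy chains H2-K1 (5157 ± 167 TPM (SD, n = 4)) and H2-D1 (4013 ± 88.3 TPM (SD, n = 4)) ranked 10 and 19. Nkg7, a membrane protein of cytotoxic granules, ranked 20 with 3705, 3690.4, 3696 and 4049 TPM. Also among the first 30 were the mitochondrial genes CYTB, ND1, ND2 and ND5 (6496, 5249.6, 3743 and 2939 TPM on average), Pfn1, an actin-binding protein (4721 TPM), Tpt1 (4147 TPM), the lymphocyte surface antigen Cd52 (3587 TPM), elongation factor Eef2 (3553 TPM), the noncoding RNA gene AW112010 (3395 TPM) and Il2rb, a chain of the IL-2 and IL-15 receptors (2909 TPM). The rest of the first 30 were ribosomal protein genes, Rplp1 the highest at 4759 TPM, pseudogenes such as Gm11478 (4895 TPM) and Gm9794 (4580.2 TPM), 1 gene without a symbol and the microRNA gene Mir682. Genes of the mitochondrial chromosome held 4.30 ± 0.558% (SD, n = 4) of all TPM, the 100 ribosomal protein genes 6.29 ± 0.274% (SD, n = 4) and pseudogenes 4.33 ± 0.163% (SD, n = 4).

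Not every high or low value can be read as expression. Mir682 ranked 2 with 10842 ± 519 TPM (SD, n = 4), but its deposited length is 96 bases, shorter than a typical sequenced fragment, and dividing by such a length inflates TPM. Genes under 300 bases together held 2.50 ± 0.0883% (SD, n = 4). Among 22 genes used as references in many tissues, 20 were on and 2 low, but some that most cells transcribe strongly read low. Gapdh, a glycolytic enzyme, was at 9.11, 7.42, 19.9 and 11.0 TPM, Ppia, a prolyl isomerase, at 39.5, 36.6, 51.5 and 32.1 TPM and Tmsb4x, which binds actin monomers, at 2.88, 0.335, 1.46 and 1.82 TPM. Pgk1, another glycolytic enzyme, was at 8.12, 9.36, 9.16 and 10.9 TPM. Of the 75-base stretches in the annotated transcripts of Gapdh, 22.6% also occurred in another gene, and of those of Pgk1 52.8%, so that counting could split or drop their reads. The same share was 11.5% for Ppia and 0% for Tmsb4x, but 26.6% for Eef1a1, which ranked 4. Among mitochondrial genes it was 39.8% for COX1 and 99.5% for COX2 and ATP6, but 0% for CYTB and ND1. Among ribosomal protein genes it reached 45.9% for Rplp1 and 90.3% for Rps27rt. For the pseudogenes Gm11478 and Gm9794 no value was available. The shares of TPM held by mitochondrial, ribosomal protein and pseudogenes are therefore uncertain. The levels of Gapdh, Ppia, Tmsb4x and Pgk1 are not taken as low expression, and their cause was not tested.

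The promoters of abundant receptor and granule genes can be set beside their levels. RefSeq (GRCm38.p6) gave 250 bases before a start for 18458 genes of the table. In 6989 of them that start lay inside the gene (1 more had no gene position), so only the 11468 windows that end at the base before the gene's own start were used, a choice made after the data were seen. They were searched on both strands for 4 short motifs: TGTGGT (bound by RUNX factors), GGTGTG (T-box factors), AGGAAG (ETS factors) and CTTTGA (TCF factors). Shown are the 2 genes of highest mean TPM with such a window among the activating receptors (Ncr1 and Klrb1c) and among the granule genes (Gzma and Nkg7), and Eef1a1 because it stood beside them in level without being particular to lymphocytes. No entry was found for Ccl5. Klra4, the highest activating receptor gene, is not shown because its window lay partly inside the gene, and 0 of the 4 motifs matched there. The windows shown lie at chr7:4337465-4337714 (plus strand), chr6:128788642-128788891 (minus strand), chr13:113100982-113101231 (minus strand), chr7:43436888-43437137 (plus strand) and chr9:78481725-78481974 (minus strand). Each is written 5′ to 3′ along its gene, with matches to any of the motifs in capitals.
Ncr1: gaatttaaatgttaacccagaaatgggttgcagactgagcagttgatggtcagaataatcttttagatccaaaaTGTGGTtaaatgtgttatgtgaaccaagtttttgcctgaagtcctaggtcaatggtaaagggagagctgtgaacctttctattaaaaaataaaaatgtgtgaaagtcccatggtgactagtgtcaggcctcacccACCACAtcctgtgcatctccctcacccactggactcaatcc
Klrb1c: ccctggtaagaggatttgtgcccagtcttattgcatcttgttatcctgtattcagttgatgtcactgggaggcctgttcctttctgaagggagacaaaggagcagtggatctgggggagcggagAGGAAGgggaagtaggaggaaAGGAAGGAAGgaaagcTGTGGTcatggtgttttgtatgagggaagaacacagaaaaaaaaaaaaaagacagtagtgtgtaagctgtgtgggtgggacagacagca
Gzma: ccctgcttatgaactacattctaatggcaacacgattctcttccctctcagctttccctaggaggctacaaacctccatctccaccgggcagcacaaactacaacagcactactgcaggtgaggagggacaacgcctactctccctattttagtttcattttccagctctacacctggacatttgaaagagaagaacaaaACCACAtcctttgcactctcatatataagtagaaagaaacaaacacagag
Nkg7: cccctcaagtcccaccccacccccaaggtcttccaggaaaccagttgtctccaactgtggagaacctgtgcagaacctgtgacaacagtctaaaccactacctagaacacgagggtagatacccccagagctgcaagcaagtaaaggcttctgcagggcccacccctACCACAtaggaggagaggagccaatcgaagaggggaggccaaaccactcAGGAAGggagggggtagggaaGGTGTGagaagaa
Eef1a1: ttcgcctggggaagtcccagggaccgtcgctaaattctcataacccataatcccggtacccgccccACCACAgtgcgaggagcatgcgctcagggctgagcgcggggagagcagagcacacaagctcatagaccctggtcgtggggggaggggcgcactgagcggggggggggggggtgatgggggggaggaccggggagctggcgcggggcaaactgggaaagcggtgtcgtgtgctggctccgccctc

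The Ncr1 promoter matched the RUNX motif beginning 176 and 41 bases before the start, and held 0 CG dinucleotides. That of Klrb1c matched it 89 bases before the start and the ETS motif at 126, 105 and 101 bases, with 1 CG. That of Gzma matched the RUNX motif 50 bases before the start with 3 CG. Nkg7 matched the RUNX motif at 83, the ETS motif at 34 and the T-box motif at 13 bases before its start. Eef1a1 matched the RUNX motif at 184 bases and held 18 CG. Over all these windows 13.0% matched the RUNX motif, 16.3% the T-box, 28.6% the ETS and 14.3% the TCF motif. Among the activating receptor genes that were on and had such a window, 5 of 6 matched RUNX, or 8 of 15 with the windows inside the gene included. Among the granule genes that were on and had such a window, 6 of 9 matched RUNX, 3 T-box and 3 ETS. With the windows inside the gene included, 8 of 16 matched RUNX, 7 T-box and 9 ETS. All 6 receptor promoters held 5 or fewer CG, as did 13.0% of the promoters of all genes that were on and 75.9% of those that were off. The promoters of the 17 NK maturation factors that were on and had such a window held a median of 20 CG, against 16 for all genes that were on. Many receptor genes lie in a shared cluster and are copies of each other, so their promoters are not independent. These are matches of letters, counted as a description, and a match is not a bound site.

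Spread over the libraries is given below as the coefficient of variation (CV), the SD divided by the mean. All 20 activating and costimulatory receptor genes listed were on, with a summed level of 10770.2 ± 567 TPM (SD, n = 4). The highest was Klra4, which encodes the Ly49D receptor, at 1538, 1590.3, 1747 and 1683 TPM, and its range overlapped that of Ncr1. Cd7, a surface protein of T and NK cells, was at 1343 TPM and Klrk1, which encodes NKG2D, at 1095, 1057, 1173 and 908 TPM. Klra8, which encodes Ly49H, the receptor for a cytomegalovirus protein, was at 738, 763, 916 and 785 TPM (stretches shared with other genes: 19.7%). Klrc2, encoding NKG2C, was at 313 TPM. Fcgr3, the Fc receptor that triggers killing of antibody-coated cells, was lower, at 158, 128, 125 and 130.3 TPM, and below Klrc2 in every library. Of the nectin-binding receptors, Crtam (131 TPM) lay above Cd226 (82.3 TPM) without overlap. Slamf6, of the SLAM family, was the lowest of the list at 28.1, 24.4, 23.6 and 20.9 TPM. Among the 20 genes Cd226 had the highest CV at 16.8%, followed by Slamf7 at 16.4%.

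The inhibitory side was of the same order: 20 of 29 listed genes were on, 9 low and 0 off, and their levels summed to 7776 ± 342 TPM (SD, n = 4). Klrd1, which encodes CD94, the partner of the NKG2 chains, was at 1526, 1409, 1754 and 1422 TPM, and Klrc1, which encodes the inhibitory chain NKG2A, was at 911, 907, 875 and 671 TPM. Klrc1 lay above Klrc2 and Klrc3, the activating NKG2 chains, with no overlap. Klre1, whose product pairs with the Klri chains, was at 1443, 1380.1, 1617 and 1495 TPM. Among the inhibitory Ly49 genes Klra7 (Ly49G) was highest at 879, 807, 879.8 and 771 TPM, then Klra9 (Ly49I) at 569 TPM, Klra3 (Ly49C) at 328 TPM and Klra1 (Ly49A) at 237, 297, 167 and 196 TPM. These 4 did not overlap in range. Klra1 was highest in WT 2 and lowest in WT 3, with a CV of 25.3% where that of Klra3 was 4.64%. The cause of this spread was not tested. Reads of stretches shared between Ly49 copies can be split. The shared part was 0.237% for Klra1, 6.39% for Klra3, 5.71% for Klra7 and 12.1% for Klra9. Tigit (235, 247, 190.2 and 264 TPM) and Cd96 (173, 184, 185 and 176 TPM), which bind the same ligands as Cd226, lay above it without overlap. The checkpoint receptors of activated T cells were scarce. Pdcd1, which encodes PD-1, was at 1.05, 5.43, 0.724 and 2.43 TPM, low only through WT 3, and would be on without that library. Ctla4 was at 0.429, 0.155, 0.941 and 2.07 TPM and Havcr2, which encodes TIM-3, at 0.304, 0.192, 0.564 and 0.830 TPM, while Lag3 was on at 47.3, 56.7, 53.0 and 56.6 TPM.

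The adaptors that carry the receptor signal were all on, 20 of 20, and their sum was 8992, 8678, 8956 and 8951 TPM. Its CV of 1.63% was the smallest of the 26 lists after that of class I presentation. Tyrobp, which encodes DAP12, the adaptor of Ly49D and Ly49H, was at 2644, 2409, 2612 and 2719.9 TPM. Fcer1g, the adaptor of NKp46 and CD16, was at 2042, 2049, 2069 and 2157 TPM, below Tyrobp without overlap, and Hcst, which encodes DAP10, the adaptor of NKG2D, was at 606, 517, 605 and 575 TPM. Cd247, the zeta chain shared with the T cell receptor, was much lower at 89.0, 92.8, 88.7 and 92.2 TPM. Lck, the kinase of T cell receptor signalling, was at 799, 809, 791 and 822 TPM with a CV of 1.65%, and Zap70 (293 TPM) lay above the related kinase Syk (119 TPM). Of the SAP adaptors Sh2d1a was at 263 TPM and Sh2d1b1 at 99.9 TPM, while Sh2d1b2 had the highest CV of the list, with 7.61, 2.63, 2.45 and 4.36 TPM. Plcg2 was at 118, 122, 125 and 104 TPM and its T cell relative Plcg1 at 3.47, 5.76, 2.58 and 6.45 TPM.

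**Figure D2:**
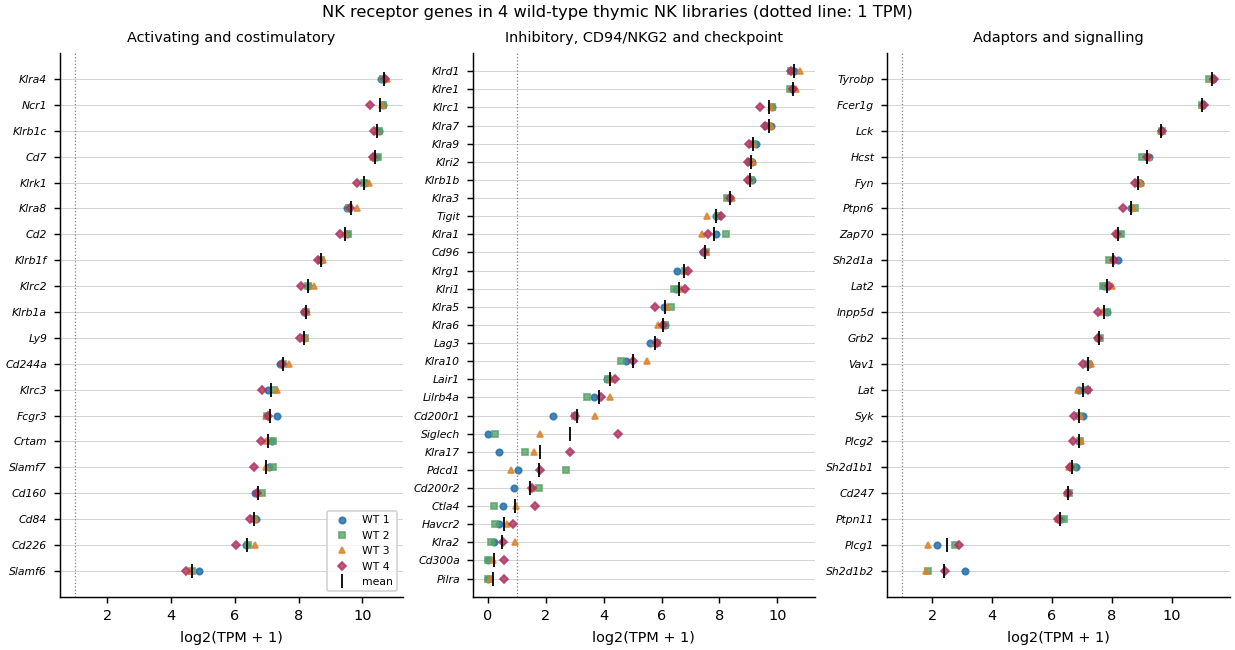
Level of each listed receptor and adaptor gene as log2(TPM + 1) (x axis) in the 4 wild-type libraries, with a bar at the mean and genes ordered by mean. All activating receptors and adaptors lie right of the dotted line at 1 TPM, and the 9 inhibitory genes with a point left of it are at the foot of the middle panel.

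The killing machinery held 1.95 ± 0.119% (SD, n = 4) of all TPM, with Gzma the highest of its genes. Of 22 granule genes 18 were on and 4 low. Prf1, the pore-forming perforin, was at 1329, 1497, 1324 and 1163 TPM, and Gzmb, the granzyme that starts apoptosis, at 756, 739.7, 837 and 849.9 TPM. Gzma lay above Prf1, and Prf1 above Gzmb, without overlap. Ctsw (1572 TPM) and Ctsd (1846 TPM) are cathepsins, Srgn (1250.4 TPM) is the proteoglycan core of the granule and Ctsc (182 TPM) the protease that activates granzymes. The other granzymes differed widely. Gzmc was at 219.6, 401, 797 and 608 TPM, with the highest CV of the genes of this list that were on (49.4%), lowest in WT 1 and highest in WT 3. Gzmk was at 36.7 TPM and Gzmm at 20.5 TPM. Gzmd, Gzme, Gzmf and Gzmg, neighbours of Gzmc in the granzyme B cluster, were low, and none passed 0.754 TPM in any library. Gzmd and Gzmf had counts in WT 4 alone. Serpinb9 (262 TPM) and Serpinb6b (399 TPM), which inhibit granzymes inside the cell, were on, as were the release factors Unc13d (120.4 TPM), Rab27a (113 TPM), Stxbp2 (98.7 TPM) and Stx11 (55.3 TPM).

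Of the death ligands and their receptors 15 of 16 were on. Fasl, the ligand of Fas, was at 123, 129, 118 and 129 TPM and Tnfsf10, which encodes TRAIL, at 115, 131, 103 and 81.5 TPM. Their ranges overlapped. Fas itself was at 3.84 TPM, and Ltb, a lymphotoxin chain, was the highest of the list at 694, 673, 704 and 518 TPM. Cd27, a costimulatory receptor of less mature NK cells, was at 281, 265, 226 and 185 TPM and Tnfrsf18, which encodes GITR, at 233, 235, 237 and 224 TPM. Tnf was on at 14.7, 8.84, 19.3 and 20.3 TPM. Cd40lg, a T cell ligand, was the 1 low gene, with 3.83, 5.99, 0.447 and 2.23 TPM, and would be on without WT 3.

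Of 22 secreted cytokines 7 were on, 7 low and 8 off. Tgfb1, an immunosuppressive cytokine, was the highest at 321, 325, 307 and 313 TPM. Ifng, the signature cytokine of NK cells, was at 134, 119, 234 and 341 TPM, higher in WT 3 and WT 4 than in WT 1 and WT 2. Flt3l (129 TPM), which supports dendritic cells, Osm (29.3 TPM), Il15 (11.1 TPM), Csf2 (9.65 TPM) and Il2 (3.67 TPM) were also on. Csf1 was at 1.31, 1.46, 0.948 and 1.46 TPM and therefore low, through WT 3 alone. Other cytokines were off or low. Il5, Il17a, Il22, Il3, Il6 and Tslp had 0 counts in each library, which at a floor of 3 counts allows at most 0.273 TPM for Il5, 0.358 TPM for Il17a and 0.385 TPM for Il22 in the shallowest library. Il10 and Il21 were off with counts in 1 library each, Il4 and Il13 were low, at no more than 0.444 TPM and 0.288 TPM, and Areg was seen in WT 4 alone (2.32 TPM).

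Chemokines held 1.08 ± 0.132% (SD, n = 4) of all TPM, with 8 of 15 listed genes on, 5 low and 2 off. After Ccl5 came Xcl1, which draws cross-presenting dendritic cells, at 1768, 1839, 1964 and 2008 TPM. Ccl4 and Ccl3, made on activation, were at 410.1, 409.9, 556 and 951 TPM and 214, 226, 431 and 464 TPM. Both were higher in WT 3 and WT 4 than in WT 1 and WT 2, as Ifng was. Ccl1 went the other way, with 39.0, 41.4, 21.9 and 21.7 TPM. Cxcl10 was on at 21.9 TPM. Ccl2 and Cxcl12, made by stromal cells, had 0 counts in all 4 libraries.

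**Figure D3:**
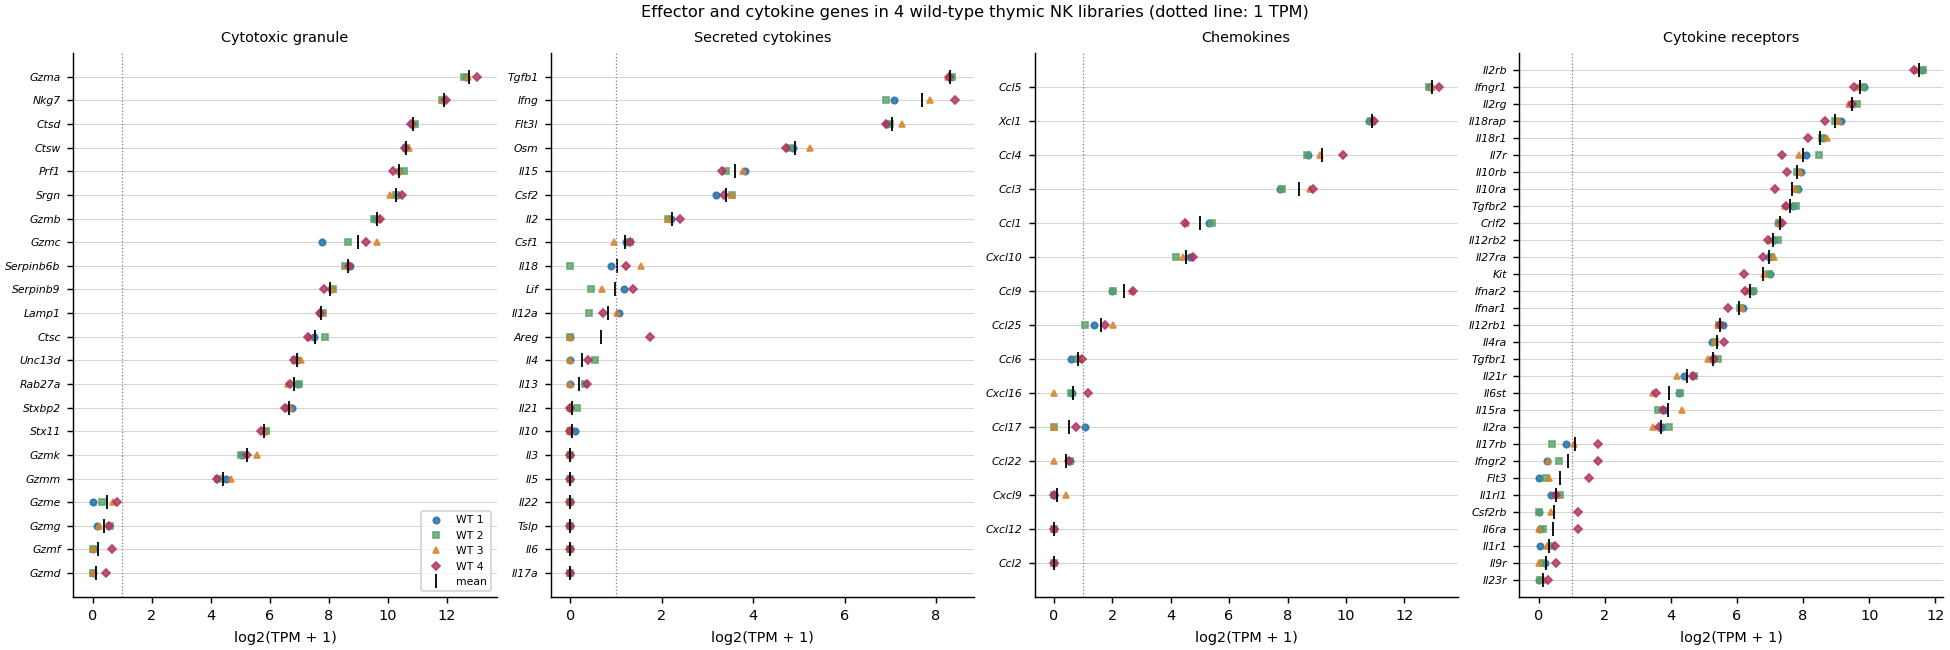
Level of each listed granule, cytokine, chemokine and cytokine receptor gene as log2(TPM + 1) (x axis) in the 4 wild-type libraries, with a bar at the mean. The points of Ifng, Ccl3 and Ccl4 spread from WT 1 and WT 2 on the left to WT 3 and WT 4 on the right, while those of Prf1, Xcl1 and Il2rb lie close together.

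Of 31 cytokine receptor genes 22 were on and 9 low. Il2rb, a chain of the IL-2 and IL-15 receptors, led at 3092, 3190.2, 2718 and 2635 TPM. Il2rg, the common gamma chain, was at 713, 786, 669 and 709 TPM, while the private chains Il2ra (12.0 TPM) and Il15ra (14.0 TPM) were far lower. Il18rap (503 TPM) and Il18r1 (367 TPM), the IL-18 receptor, lay above Il12rb2 (135 TPM) and Il12rb1 (43.7 TPM), the IL-12 receptor, without overlap. Il7r overlapped in range with Il10ra, Il10rb and Tgfbr2. Crlf2, the other partner of Il7r, forming the receptor for TSLP, was on at 150.5, 154, 157 and 162 TPM. Kit, the receptor of stem cell factor, was on at 127, 124, 111 and 73.7 TPM. Ifngr1 was at 842 TPM, while Ifngr2, the second chain of the interferon gamma receptor, was low at 0.178, 0.543, 0.203 and 2.48 TPM. The receptors of group 2 and group 3 innate lymphocytes were low: Il1rl1, which encodes ST2, stayed at or below 0.559 TPM, Il17rb at or below 2.45 TPM and Il23r at or below 0.210 TPM. Downstream, all 15 JAK, STAT and SOCS genes were on. Jak1 was at 1138 TPM, Jak3, the kinase of the gamma chain, at 117 TPM and Jak2 at 98.2 TPM. Stat4, which carries the IL-12 signal, was the highest STAT gene at 387, 382, 366 and 246 TPM, and Stat5b (65.4 TPM) lay above Stat5a (37.3 TPM). Socs3, a feedback inhibitor, varied most of these, with 21.9, 20.3, 49.8 and 114 TPM.

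Of 32 NK maturation factors in the table, 30 were on and 2 low. Ets1 led them with 887, 983, 789 and 774 TPM. Of the 2 T-box factors, Eomes lay above Tbx21, which encodes T-bet and was at 454, 455, 419 and 325 TPM, without overlap. The Ikaros factors Ikzf1 (495 TPM) and Ikzf3 (392 TPM) were high, and Ikzf2 was at 16.5 TPM. Runx3 (196, 208, 201 and 181 TPM) lay above Runx2 (46.4 TPM) and Runx1 (38.2 TPM), and their partner Cbfb was at 323 TPM. Irf8 was at 286, 286, 291 and 389 TPM and Tox, needed for NK development, at 114, 102, 98.0 and 85.9 TPM, while its relative Tox2 was low at 0.330, 0.402, 0.668 and 1.19 TPM. Nfil3, required for NK progenitors, was at 69.7, 65.1, 67.7 and 135 TPM, highest in WT 4. Zeb2 (28.4 TPM) and Zeb1 (24.9 TPM), zinc finger factors of which the first is needed for terminal maturation, overlapped in range, and Prdm1, which encodes Blimp-1, was at 22.96, 19.5, 21.6 and 26.8 TPM. Klf6 had the highest CV of the list (62.9%), with 123, 125, 145 and 369 TPM and a mean of 131 TPM without WT 4.

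Of 29 factors of T cell and innate lymphoid commitment 20 were on, 6 low and 3 off. Id2, the inhibitor of E proteins that all innate lymphocytes need, was highest at 1605, 1731, 1582 and 1229 TPM, above Tcf7 without overlap. Id3, its relative, was at 28.6, 28.5, 25.7 and 31.0 TPM, and the E proteins Tcf3 (122 TPM) and Tcf12 (106 TPM) lay between them. Lef1, the closest relative of Tcf7, was at 56.5, 50.9, 41.7 and 43.2 TPM, below it in every library. Notch1, the receptor that starts T cell commitment, was at 62.1, 58.9, 59.1 and 58.6 TPM, Notch2 at 39.3 TPM, and the Notch target genes Dtx1 and Hes1 were at 19.3, 22.5, 17.5 and 16.8 TPM and 21.5, 20.9, 36.7 and 91.1 TPM. Hes1 was higher in WT 3 and WT 4 than in WT 1 and WT 2, and Dtx1 was lower there. Bcl11b, which fixes T cell identity, was on but low in level at 7.17, 8.31, 6.23 and 10.9 TPM, as was Zbtb16, which encodes PLZF, at 5.63, 8.36, 5.28 and 6.55 TPM. Rora, needed for group 2 cells, was at 11.6 TPM. Gata1 and Foxp3, factors of red cells and regulatory T cells, were off, and Gata2 had 0 counts in each library, which allows at most 0.129 TPM. The myeloid factors Spi1 (0.690, 0.730, 0.524 and 4.31 TPM) and Cebpa (0.0349, 0, 0.318 and 1.91 TPM) were low and highest in WT 4.

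Of 20 chemokine receptors 11 were on, 7 low and 2 off. Ccr2, the receptor of monocyte chemoattractants, led with 787, 765, 708 and 593 TPM, and Cxcr3, the receptor of Cxcl10, was at 277, 282, 209 and 176 TPM, below it without overlap. Cxcr6, a receptor of liver-resident NK cells, was at 83.1, 141, 113 and 74.4 TPM, and Cx3cr1, of mature circulating cells, at 60.3, 83.6, 69.8 and 51.5 TPM, with overlapping ranges. Ccr8 was at 40.8, 82.7, 46.3 and 48.7 TPM, highest in WT 2. Ccr7, which leads cells to lymph nodes, was at 16.2, 19.5, 16.6 and 16.0 TPM, and Ccr9, which holds thymocytes in the thymus, was low in level outside WT 4, at 0.629, 0.750, 1.72 and 10.5 TPM, or 1.03 TPM on average without WT 4. Ackr3 was off with counts in WT 2 alone, and Cxcr1 had 0 counts.

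All 24 adhesion and residency genes were on. The integrin chains Itgb2 (1277, 1311, 1336 and 1021 TPM), Itgb1 (1189 TPM) and Itgal (998 TPM) were among the highest. Itgam, which encodes CD11b, a maturation marker, was at 155, 155, 176 and 169 TPM and overlapped in range with Itga2, which encodes CD49b, at 180, 152, 137 and 125 TPM. Of the stretches of Itgam 65.2% also occurred in other annotated genes, so that its level is uncertain. Itga1, which encodes CD49a of tissue-resident cells, was at 43.8, 48.7, 36.5 and 31.9 TPM, below Itga2 in every library, and Itgae, which encodes CD103, was at 50.3, 88.2, 74.9 and 62.4 TPM. Thy1 was at 370.3, 367, 326 and 455 TPM. Cd69, which blocks egress, had the highest CV of the list (50.9%), with 74.1, 67.5, 50.6 and 148 TPM. Of 12 genes of egress 11 were on and 1 low. Of the receptors for the egress lipid sphingosine-1-phosphate, S1pr4 (198, 204, 206 and 165 TPM) and S1pr5 (175, 186, 227 and 163 TPM), the receptor typical of NK cells, lay above S1pr1 (94.5, 94.0, 65.4 and 76.6 TPM), the receptor of T cells, without overlap. Klf2, the factor that drives S1pr1, was at 696, 761, 749.5 and 598 TPM. Rgs1, which damps chemokine receptor signals, was at 84.1, 84.5, 162 and 577 TPM and at 110.2 TPM on average without WT 4.

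**Figure D4:**
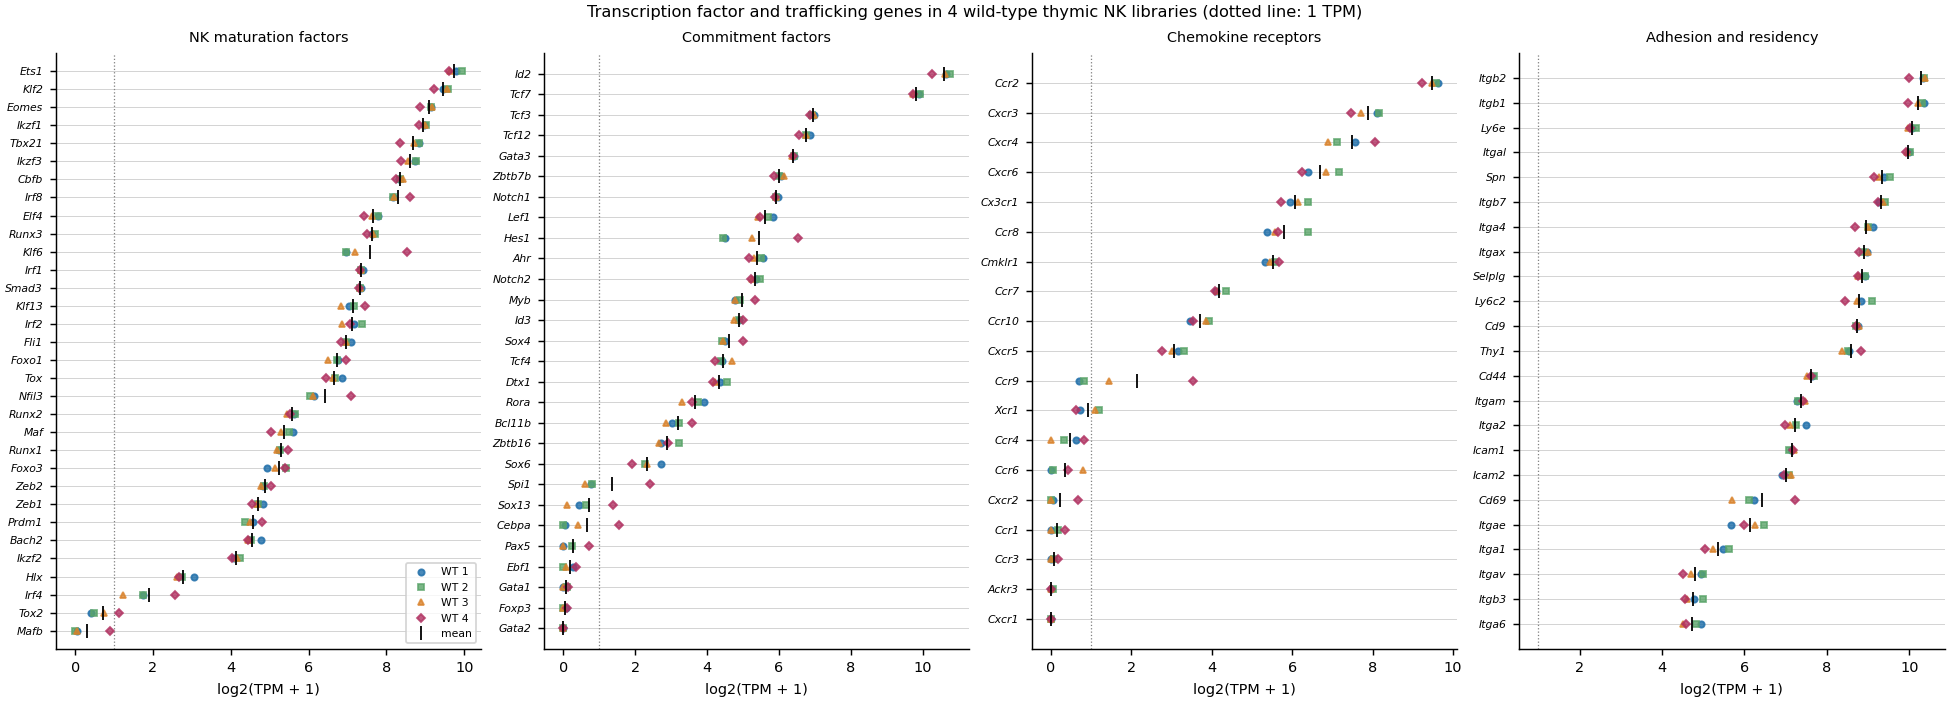
Level of listed transcription factor, chemokine receptor and adhesion genes as log2(TPM + 1) (x axis) in the 4 wild-type libraries, with a bar at the mean. Most rows hold their 4 points within a narrow band, whereas Klf6, Hes1, Ccr9 and Cd69 have WT 4 farthest to the right.

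Transcripts of antigen receptor genes were present in cells sorted as negative for the alpha-beta receptor and CD3. Of the alpha-beta T cell markers 14 of 16 were on, of the gamma-delta T cell markers 6 of 10 and of the B cell markers 4 of 12. Trbc1 and Trbc2, the constant segments of the T cell receptor beta chain, were at 377, 379, 532 and 426 TPM and 307, 375, 373 and 419 TPM, and Trac, the alpha constant segment, was at 69.5, 91.8, 42.2 and 91.0 TPM. Trdc, the delta constant segment, was at 350.3, 426, 229 and 294 TPM, and Trgc4 and Trgc1, gamma constant segments, were at 222, 347, 261 and 201 TPM and 54.9, 96.2, 21.6 and 54.1 TPM. The chains of the CD3 complex were on, Cd3g at 160.4, 224, 89.8 and 168 TPM, Cd3d at 129, 151, 67.1 and 111 TPM and Cd3e at 72.7, 119, 29.3 and 60.9 TPM. Cd3e, Trac and Trgc1 were lowest in WT 3 and highest in WT 2 (Trac near equal in WT 4), so that they did not follow Cd4, Cd8b1 and Rag1, which were highest in WT 4. Of other genes of alpha-beta T cells, Cd5 was at 3.07, 9.27, 2.64 and 9.25 TPM and Themis, of developing thymocytes, at 1.06, 1.22, 1.55 and 7.41 TPM. Both were on, and below the CD3 chains in every library. Counts on a constant segment do not show whether the locus was rearranged. Ighm, the heavy chain constant gene of IgM, was on at 564, 596, 562 and 587 TPM with a CV of 2.93%, and Ighd at 45.7, 49.5, 50.5 and 34.4 TPM. Of the other B cell markers Ms4a1, which encodes CD20, was at 0, 0.182, 0 and 1.65 TPM and Pax5 at 0, 0.186, 0 and 0.648 TPM, both low. Of 16 stromal and red cell markers 6 were on, 3 low and 7 off. The globin genes Hbb-bs and Hba-a1, which share 51.5% and 67.9% of their stretches with other genes, were at 21.9, 61.4, 80.1 and 95.5 TPM and 25.8, 46.2, 53.5 and 52.3 TPM, and Epcam, an epithelial surface protein, was at 5.31, 7.01, 5.56 and 6.08 TPM. Foxn1, Aire and Psmb11, genes of thymic epithelium, and Col3a1, a fibroblast collagen, had 0 counts in each library.

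Class I presentation held 2.43 ± 0.0233% (SD, n = 4) of all TPM, with all 14 genes on and a CV of the sum of 0.961%. Psmb8, an immunoproteasome subunit, was at 613 TPM and Tap1, a peptide transporter, at 217 TPM. Of 20 interferon-stimulated genes 19 were on at moderate levels, Bst2 at 203, 154, 157 and 227 TPM, Irf7 at 114 TPM, Isg15 at 63.8, 58.7, 31.3 and 55.0 TPM and Ifit3 at 61.8, 47.9, 39.8 and 32.6 TPM. Oas2 alone was low (0.119, 0.368, 0.362 and 0.540 TPM). Of 26 cell cycle genes 25 were on and Cdkn2a had 0 counts. Mki67, the proliferation marker, was at 23.3, 24.2, 31.3 and 25.5 TPM, Top2a at 52.4 TPM and Ccnb1 at 1.79, 3.72, 5.61 and 3.53 TPM, while the D cyclins Ccnd3 (374 TPM) and Ccnd2 (313 TPM) were higher. The survival genes Mcl1 and Bcl2 were at 353, 341, 375 and 417 TPM and 151, 138, 139 and 111 TPM, Mcl1 above Bcl2 without overlap, and Bcl2l11, which encodes the pro-death protein BIM, was at 117, 105, 71.5 and 91.9 TPM. Hrk had 0 counts.

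The 4 libraries were alike in most genes. Over the 11160 genes that were on, log2(TPM + 1) correlated across genes with a Pearson r of 0.978 to 0.992 in the 6 pairs of libraries, highest for WT 1 with WT 2 and lowest for WT 1 with WT 4; genes are not independent replicates. Between WT 1 and WT 2, 62 genes differed by more than 1 on the log2 scale, against 238 between WT 1 and WT 4. Among 8519 named genes of at least 10 TPM on average and 300 bases in length the median CV was 9.91%, with quartiles of 6.54% and 14.4%. Counting error alone would give a median CV of 2.82%. The steadiest were Mpp6 (50.4, 50.3, 50.9 and 50.3 TPM), Cct2, a chaperonin subunit (357, 356, 353 and 358 TPM), Cops8 (86.6 to 87.9 TPM), Brk1 (296 to 301 TPM), Retreg2 (111 to 112 TPM), Rnf115 (123 to 124 TPM), Rab1b (302 to 307 TPM), Zfp787 (52.2 to 53.1 TPM), Yaf2 (48.5 to 49.5 TPM) and Ndfip1 (789.7 to 805 TPM), none with a CV over 0.877%.

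A small group of genes varied far more, and mostly in 1 library. A CV over 50% was found in 100 of these genes, of which 84 were highest in WT 4. Without WT 4 the number was 42, and over WT 1 and WT 2 alone 10. The 10 most variable were S100a9, S100a8 and Xist, given above, and Atf3, Sik1, Irs2, Maff, Fosb, Nr4a1 and Tnfaip3. Atf3, a stress-response factor, was at 2.42, 1.29, 1.13 and 74.6 TPM. Nr4a1, a nuclear receptor induced quickly by receptor signalling, was at 53.8, 47.2, 54.0 and 493 TPM, and Tnfaip3, a brake on NF-kappaB, at 75.9, 71.3, 119 and 842 TPM. The salt-inducible kinase Sik1 was at 5.92, 6.50, 12.7 and 119.6 TPM, the insulin signalling adaptor Irs2 at 7.36, 8.02, 9.09 and 85.0 TPM and the small Maf factor Maff at 12.4, 11.7, 10.8 and 119.6 TPM. In these 6 genes WT 4 alone was high, and the other 3 libraries averaged 1.61 TPM for Atf3, 51.7 TPM for Nr4a1, 88.8 TPM for Tnfaip3, 8.37 TPM for Sik1, 8.16 TPM for Irs2 and 11.6 TPM for Maff.

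Other early response genes were high in both WT 3 and WT 4. Of 25 listed genes 24 were on, and the list summed to 3763, 3795, 7607 and 11648 TPM. Fos was at 49.2, 34.6, 351 and 286 TPM, Jun at 37.9, 41.2, 368 and 525 TPM and Fosb at 3.75, 3.89, 83.9 and 258 TPM, all components of the AP-1 factor. Junb, the most abundant, was at 528, 485, 1657 and 2639 TPM. Dusp1, a phosphatase induced by stress kinases, was at 20.6, 16.4, 121 and 378 TPM. The heat shock genes Hspa1a and Hspa1b were at 3.49, 2.17, 168 and 413 TPM and 14.0, 9.44, 369 and 802 TPM, a pair of near-identical copies that share 54.2% and 55.8% of their stretches with other genes, while the constitutive Hspa8 moved less, at 456, 450.2, 619 and 598 TPM. Egr2 and Egr3, induced by antigen receptor signals, did not share this pattern: Egr2 was at 41.6, 39.3, 23.4 and 27.5 TPM and Egr3 at 49.8, 46.3, 33.6 and 40.9 TPM. Over the WT 1 and WT 2 libraries alone the means were 41.9 TPM for Fos, 39.6 TPM for Jun, 18.5 TPM for Dusp1 and 3.82 TPM for Fosb. Ifng, Ccl3, Ccl4, Hes1 and Socs3, described above, were higher in the same libraries. The cause of the difference between the libraries was not tested.

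**Figure D5:**
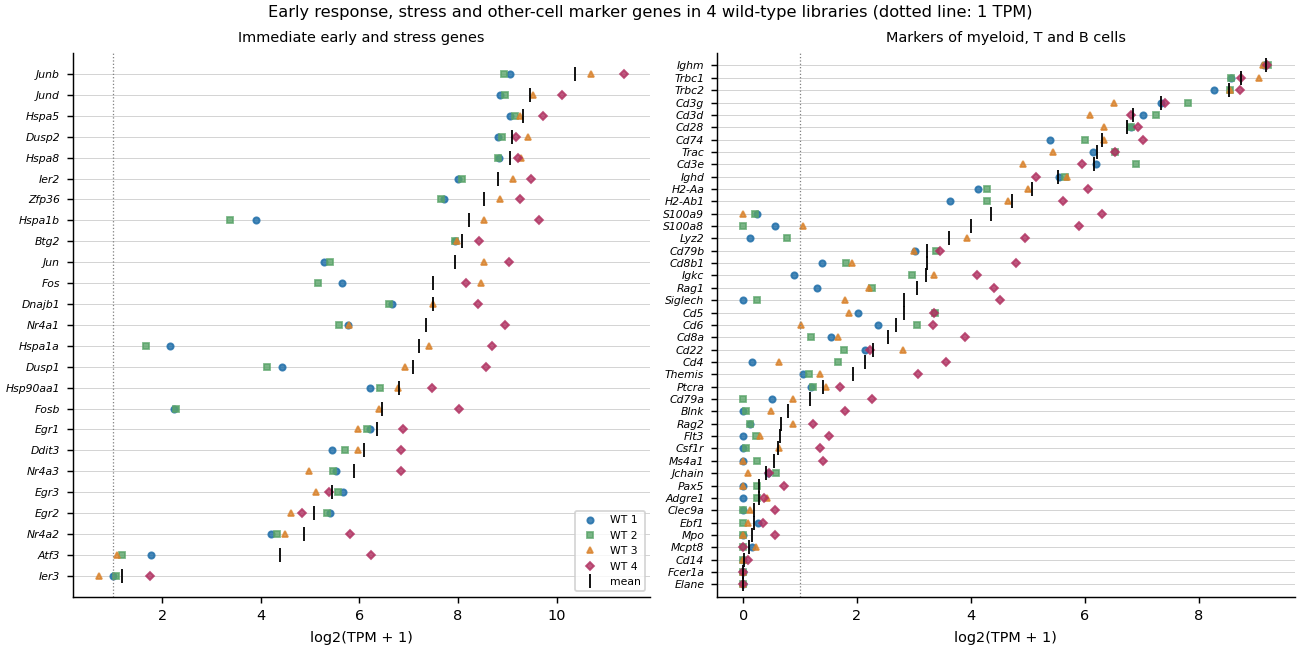
Level of early response and stress genes (left) and of myeloid, T cell and B cell markers (right) as log2(TPM + 1) (x axis) in the 4 wild-type libraries, with a bar at the mean. In Fos, Jun, Hspa1a, Hspa1b and Dusp1 WT 3 and WT 4 lie right of WT 1 and WT 2, and in Atf3, Nr4a1, S100a8, S100a9 and Cd8b1 WT 4 lies apart.

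Sex as labelled was the only difference among the mice that the labels allow to be tested, with 2 libraries against 2. By edgeR's quasi-likelihood test, 0 of 12800 genes (0.0%) were called at a Benjamini-Hochberg adjusted p under 0.05. An unadjusted p under 0.05 was found in 380, fewer than the share of 0.05 that chance alone would give. The p-values are set against the spread between libraries of the same labelled sex. In the female group that spread includes the difference of WT 2 from WT 4 in Y chromosome transcripts and Xist. The 0 calls therefore do not show that the sexes are alike. The 5 genes of smallest p were Xist, Cd5, Tspan9, Ktn1 and ND4L, and all had an adjusted p of 0.997 in this test. Xist differed by 9.97 on the log2 scale (labelled female minus male; mean 239.9 against 0.198 CPM) and Cd5 by 1.75, higher in both libraries labelled female. Tspan9 and ND4L were higher in the libraries labelled female by 1.42 and 1.22, and Ktn1 was lower, at -0.68. DESeq2 called 1 gene, Clec2d, a ligand of NKR-P1 receptors, at -0.99 with an adjusted p of 0.0150. Because WT 2 goes against its label, the test was also run without it: 399 of 13363 genes (2.99%) were then called, 295 higher and 104 lower in WT 4. In that fit WT 4 is the only library labelled female, so that sex cannot be told apart from the myeloid, thymocyte and early response transcripts of this library.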

How the data were processed

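RNA-seq libraries of 4 wild-type samples were analysed. Per the file headers, the authors deposited raw whole-number counts per Entrez gene with a gene length. Per the submitters' processing notes they used featureCounts and the mm10 build, and neither an aligner nor any version is named in the sources used here. Strand is not kept by the kit, so reads of overlapping or antisense genes can be mixed, and amplified reads without molecular identifiers are not independent molecules, so floors of 3 counts cover counting error only. The 4 files of single samples held the same counts as the table.

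TPM was computed from counts and deposited length over all genes. Symbols and positions came from RefSeq (GRCm38.p6, which is the mm10 build) and were found for 25275 of 26332 gene IDs, and the others carried 0.596% of counts. Promoters also came from RefSeq, and shared 75-base stretches from GENCODE M21 transcripts. The sex test used edgeR 4.0.16 (R 4.3.3; TMM, filterByExpr, glmQLFit, glmQLFTest) and, as an alternative, DESeq2 1.42.0; scripts were tested on simulated counts. The 26 gene lists (507 entries; 1 listed gene, Zfp683, was not found in the table) and the genes described were chosen with earlier results of these data known. Genes were named by this rule: the 6 markers, the 30 of highest mean TPM, the highest, the off and the most variable members of each list, the 10 most and 10 least variable genes and the 5 of smallest p for sex; the choice within lists was made after the values were seen. A few listed genes enter the counts and sums but are not reported here by name. Alternatives covered scaling, length, thresholds, filters and each library left out.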

Additional observations from a re-analysis of the deposited data

Results flagged for a closer look

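Of the genes named, some of them for their spread, 292 were checked for a library far from the rest. In 38 of these 292 genes, 1 library lay far from the other 3. Its gap to the nearest, divided by the whole range, passed Dixon's critical value for 4 samples, where chance alone flags about 1 in 20 groups. WT 4 was that library in 32 of them, and among all 8519 named genes of at least 10 TPM in 339 of the 599 (7.03%) with such a gap. WT 4 was high in Atf3 (74.6 TPM), Irs2 (85.0 TPM), Klf6 (369 TPM), Maff (119.6 TPM), Nfil3 (135 TPM), Nr4a1 (493 TPM), Rgs1 (577 TPM), Sik1 (119.6 TPM) and Tnfaip3 (842 TPM). It was high in S100a8 (58.3 TPM), S100a9 (77.5 TPM), Siglech (21.7 TPM), Spi1 (4.31 TPM), Cebpa (1.91 TPM), Ms4a1 (1.65 TPM), Cd8b1 (26.5 TPM), Rag1 (20.1 TPM), Themis (7.41 TPM) and Ccr9 (10.5 TPM). It was also high in Irf8 (389 TPM), Nkg7 (4049 TPM), Xist (50.9 TPM), Ifngr2 (2.48 TPM), Areg (2.32 TPM), Gzmd (0.371 TPM) and Gzmf (0.574 TPM).

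WT 4 was low in Ncr1 (1208 TPM), Eomes (464 TPM), Klrc1 (671 TPM), Stat4 (246 TPM), Il10ra (141 TPM) and Ltb (518 TPM). Its summed JAK, STAT and SOCS level was 2416 TPM against 2862 to 2888 TPM in the others. WT 1 was high in Fcgr3 (158 TPM) and Notch1 (62.1 TPM), and held the only counts of Il10 (0.0705 TPM). WT 2 held the only counts of Il21 (0.0975 TPM) and Ackr3 (0.0290 TPM), and its summed adaptor level of 8678 TPM was the lowest. WT 3 was low in Eef2 (3207 TPM). Values that rest on single counts, such as those of Il10, Il21 and Ackr3, are at the limit of depth.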

How the results depend on the processing

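The number of genes that were on depended on the threshold, with 9449 at 5 TPM and 11735 at 0.5 TPM against 11160 at 1 TPM. Over scaling, length, filter and each library left out it moved little, from 11054 to 11287. With WT 3 and WT 4 left out together, a choice made after seeing the data, it was 11387. The share of the 100 most abundant genes depended on the unit: 25.2% without mitochondrial genes, 30.6% with 200 bases taken off each length and 17.9% as CPM, against 27.2%; leaving out each library gave 26.8% to 27.6%. The sex test called 144 genes without the filter on low counts, 1 by DESeq2, and 0 to 399 with each library left out in turn, 399 without WT 2 and 39 without WT 4, where the lone sample of a sex is assumed to vary like the other sex; the cause was not tested. TMM scaling moved none of 274 named genes by more than 1 SD, and the shorter effective length moved 99, by at most 2.51 times. Leaving out WT 4 moved 37 means by over 1.5 times. On and off genes cannot change state when a library is left out, and of the low genes among 498 listed, 28 did. No paired analysis was possible because the 4 libraries form a single group and the sexes share no replicate number. Differences below 3 counts were not detectable at this depth.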

Other observations

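Some other abundant protein-coding genes, outside the mitochondrial and ribosomal protein genes, are given here, chosen after their values were seen. Coro1a, an actin regulator of leukocytes, was at 2339, 2296, 2417 and 2350.3 TPM and Arhgdib at 1942, 2046, 1799.8 and 1888 TPM. Shisa5 was at 2377, 2332, 1970.3 and 2161 TPM, Ms4a4b, a membrane protein of T and NK cells, at 2309, 2048, 2189.7 and 1832 TPM and the lysosomal protein gene Laptm5 at 2021, 2146, 1718 and 1952 TPM. Ptprc, which encodes CD45, was at 1727, 1653, 1813 and 1470.3 TPM and Ptprcap, which encodes its partner, at 1623, 1655, 1713 and 1650.1 TPM, with overlapping ranges. S100a10 (1552, 1522, 1627 and 1692 TPM) and Anxa2 (1667, 1651, 1592 and 1618 TPM), whose products form a complex, also overlapped in range. Among these genes Ms4a4b had the highest CV, 9.79%.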
